A study of Brassica napus with 9 samples.

Results

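The state of Brassica napus guard cells after 60 min of abscisic acid (ABA) was described from 6 RNA-seq libraries, 3 from mock-treated protoplasts and 3 from protoplasts given 10 µM ABA for 60 min, out of 9 libraries in the series. The 6 were chosen by treatment and time alone, and every one of the 101040 annotated genes was eligible. All came from leaves of the double-haploid line DH12075, harvested at an age of 5 to 7 weeks. Both groups were guard cells stripped of their walls by enzymes and held in the light at room temperature, the mock group with ethanol in place of ABA. Each library was made from a pool of several protoplast preparations, and mock and ABA libraries with the same number came from the same biological sample. A single mock group is the reference, which the study's model labels t = 0. How long it was held is not otherwise given in the sources used here. For this reason 60 min of ABA and time in the medium cannot be told apart.

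Guard cells border the stomatal pore, and ABA, the hormone of water shortage, makes them lose ions and water until the pore closes. In Arabidopsis the hormone is bound by the soluble receptors of the PYR/PYL family. The occupied receptor blocks clade A protein phosphatases 2C (PP2Cs), and this frees SnRK2 kinases such as OST1 to act on ion channels and on bZIP transcription factors of the ABF group. B. napus carries an A and a C subgenome, so that most Arabidopsis genes have several copies, and gene names below are those of the Arabidopsis orthologs that the study pairs with each B. napus gene.

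Total counts ran from 88051359 to 121981439 in the mock libraries and from 111165344 to 122950146 after ABA, and the 10 most abundant genes took 3.73% to 6.53% of a library. Of the 101040 genes 51128 had enough counts to be tested, which together made up 99.95% of the counts (median 350 per gene and library), while 25707 had no count in any of the 6 libraries. Levels are given as CPM, each count relative to the size of its library, after scaling with edgeR's TMM factors, which were 0.833 to 0.963 for the ABA libraries and 0.974 to 1.23 for the mock libraries. The markers fixed for guard cells that could be matched to a gene were MPK12, ALMT12 and OST1, and for mesophyll CAB1. Their genes come from the study's lists of genes that changed in these samples, so other copies are not included. In mock libraries 1, 2 and 3 the 3 MPK12 genes summed to 146, 83.2 and 350.4 CPM, the 2 ALMT12 genes to 116, 132 and 462 CPM, and the 2 OST1 genes to 5.16, 6.04 and 6.38 CPM. CAB1, a chlorophyll-binding protein, stood at 41.7, 42.0 and 19.4 CPM in the same libraries. Replicate 3 was thus highest in each of the guard cell markers and lowest in the mesophyll marker. The study counted guard cell purity with a hemacytometer and describes its preparations as highly pure, without a value for each replicate. In bulk RNA, a different share of a cell type and a different amount of RNA per cell cannot be told apart.

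After 60 min of ABA, 9484 genes were differentially expressed, 18.5% of those tested, of which 6079 (11.9%) were higher and 3405 (6.66%) lower than in mock-treated guard cells. A gene is called differentially expressed here when its p-value from edgeR's quasi-likelihood test, with the replicate number as a block and Benjamini-Hochberg adjustment over all genes tested, was under 0.05. At an unadjusted p under 0.05 there were 16700 genes. Rises reached further than falls. The median log2 fold change was 0.67 among the genes that rose and -0.54 among those that fell, and 2241 genes (4.38% of those tested) were called with a change over 2-fold, a log2 value of 1. Of these, 1796 rose and 445 fell. More than 8-fold, 156 genes rose and 5 fell, and more than 32-fold 33 genes rose and 1 fell. At the other end, 3416 of the called genes changed by less than 0.5 on the log2 scale.

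The split between rises and falls depended on the scaling of the libraries. With TMM 64.1% of called genes were higher, and with total counts alone 15.3% of 23026 called genes were. Total count scaling lowered the median fold change by 0.29 on the log2 scale. The excess of rises at large folds remained with either scaling, since with total counts 124 genes rose and 11 fell by more than 8-fold, although past a log2 change of 1 the order turned, with 1159 rises and 1932 falls. Without the replicate block 444 genes were called, and without both libraries of replicate 1 the count was 2919.

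**Figure D1:**
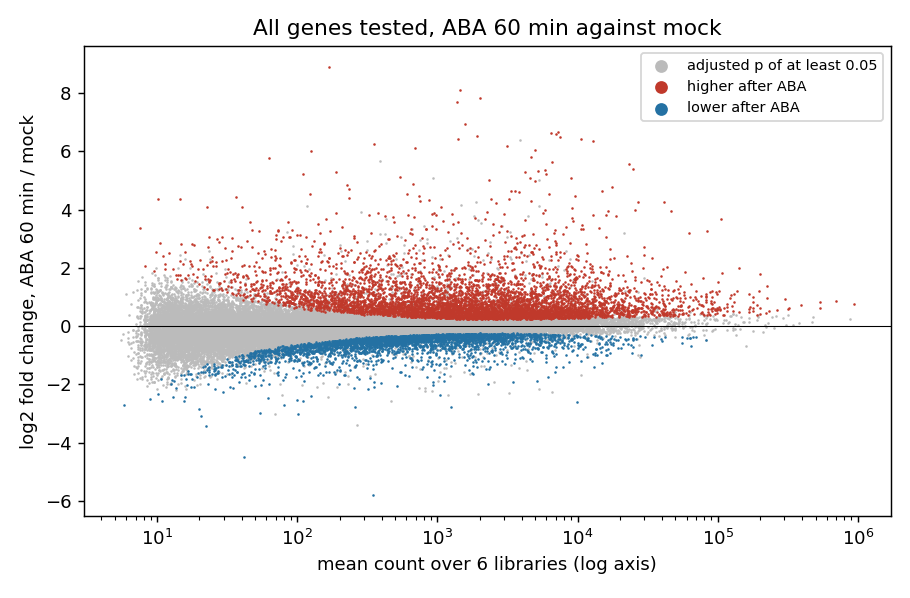
Each point is 1 of the 51128 genes tested, with its mean count over the 6 libraries on a log axis and its log2 fold change, ABA 60 min over mock, on the vertical axis. Red marks the 6079 genes that rose and blue the 3405 that fell, and rises extend to a log2 value of 8.88 while 1 fall goes below -5.

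The share of genes called was 18.7% of 24439 on the A subgenome and 18.4% of 26558 on the C subgenome, a difference that was not tested. Among the numbered chromosomes the share ran from 17.1% on A04 to 20.2% on C07. It was higher among genes with more reads, where errors were smaller. Genes were split into 10 groups of equal size by mean expression over the mock and ABA libraries together. Of the lowest group 2.21% were called and of the highest 40.3%, and the share of called genes that were higher went from 54.0% to 85.9%. Since the ABA libraries help to place a gene, a rise moves it toward higher groups, and direction and group are not independent. Genes of the lowest group had a median SE of 0.50 on the log2 scale and those of the highest 0.088, while the median size of the change, regardless of direction, was 0.44 and 0.24. The median log2 fold change over all genes of a group climbed from -0.16 to 0.18. With total counts alone the highest group had 19.1% of genes higher and 31.6% lower, so that the greater number of rises there rests on TMM, while the order of the medians, from -0.45 to -0.11, did not turn.

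**Figure D2:**
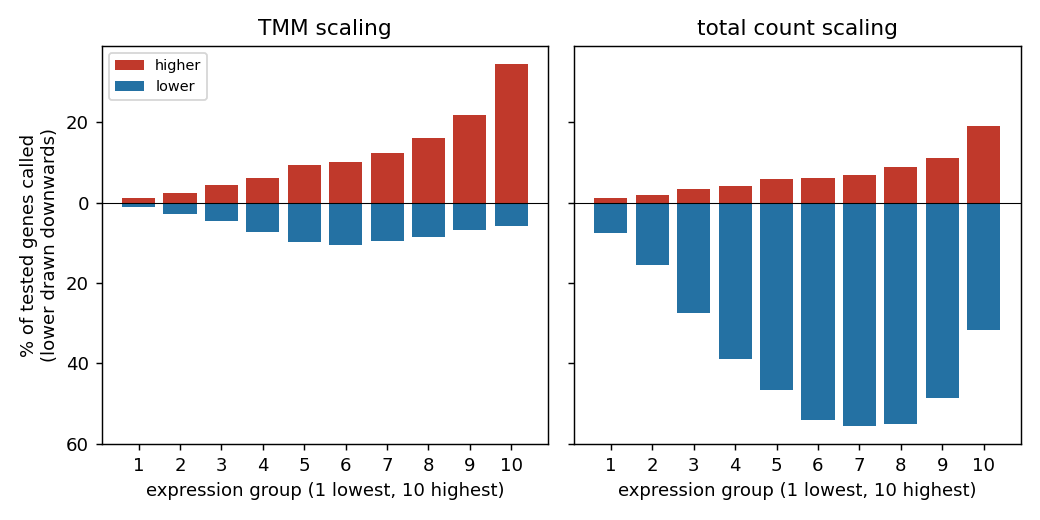
Bars give the percent of tested genes called higher (red, upward) and lower (blue, downward) in 10 groups of increasing mean expression over mock and ABA libraries. TMM scaling is on the left and total count scaling on the right. In the highest group 34.6% of genes were higher with TMM and 19.1% with total counts.

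Much of the gain in reads fell on few genes. Scaled by total count, 18850 genes gained 131048 CPM in all over the mock libraries, and 100 of them accounted for 38.5% of that gain. Of these 100 genes 98 were called higher, against 11.9% of all genes tested. Together they rose from 5.97% to 10.2% of all counts in the mock libraries to 11.4% to 14.3% after ABA. The 100 genes were picked by their gain in these same libraries, so both results are a description only. The matching loss was spread over 56483 genes, with 17.6% of it in the 100 largest losers. One of the 10 largest gains in CPM carried a name, the dehydrin ERD14, a hydrophilic protein of dehydrating cells. ERD14 (BnaA07g32420D) had 1119.6, 1300.5 and 973 CPM in mock libraries 1, 2 and 3 and 2974, 2553 and 3245 CPM in ABA libraries 1, 2 and 3. All ABA libraries were above all mock libraries, and the gene rose 2.59-fold (log2 fold change 1.37, SE 0.16, edgeR adjusted p = 7.8e-04).

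Among the genes with the largest relative rises were some for late embryogenesis abundant (LEA) proteins, which protect proteins and membranes in drying seeds and stressed tissue. Of the 10 called genes with the largest rise and a mean of at least 50 counts, 5 had a name, and these were LEA genes, orthologs of AT3G17520, AT3G02480 and AT3G15670. Names exist only for genes of the study's own tables, and the 2 largest rises were of unnamed genes. BnaC05g35990D, an AT3G17520 gene, had 0.181, 0.261 and 0.0568 CPM in the mock libraries and 41.8, 27.3 and 43.0 CPM after ABA. It rose 227-fold (log2 fold change 7.83, SE 0.52, edgeR adjusted p = 0.0064). The second AT3G17520 gene, BnaAnng35040D, went from 0.241, 0.143 and 0.0213 CPM to 35.7, 25.5 and 17.1 CPM (log2 fold change 7.69, SE 0.29, edgeR adjusted p = 1.8e-04). BnaC03g32950D, an AT3G02480 gene, went from 0.311, 0.370 and 0.0355 CPM to 39.7, 17.5 and 29.7 CPM (log2 fold change 6.94, SE 0.77, edgeR adjusted p = 0.032). These 3 genes had at most 0.370 CPM in any mock library and at least 17.1 CPM in every ABA library. BnaA03g27910D, also of AT3G02480, rose by 6.54 and BnaC05g37670D of AT3G15670 by 6.62 on the log2 scale. Leaving out 1 replicate number kept every one of the 5 above a log2 value of 6. The call was lost without replicate 1 for BnaC05g35990D (edgeR adjusted p = 0.089), BnaC03g32950D (0.22) and BnaA03g27910D (0.051), without replicate 2 for BnaC05g37670D (0.12), and without replicate 3 for BnaA03g27910D (0.11) and BnaC05g37670D (0.2). Without replicate 2 or 3 the log2 value of BnaC05g35990D was 8.58 or 7.21, that of BnaC03g32950D 7.82 or 6.26, and without replicate 2 that of BnaA03g27910D 7.25.

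The remaining 5 of the 10 have no name in the sources used here. The gene with the largest fitted rise, BnaCnng58140D, had 0, 2 and 0 counts in mock libraries 1, 2 and 3 and 179, 126 and 704 after ABA. Its ratio of summed counts was 564 (exact binomial 95% interval 156 to 4664, counting error only). BnaCnng44320D followed with 0.0703, 0.143 and 0.0711 CPM against 22.5, 18.3 and 38.9 CPM (log2 fold change 8.11, SE 0.33, edgeR adjusted p = 3.0e-04). Of the 10 largest falls 1 had a name, the receptor gene PYL6 described next. After it came BnaA08g15560D, from 1.49, 1.16 and 1.83 CPM to 0.196, 0.205 and 0.146 CPM (log2 fold change -3.02, SE 0.26, edgeR adjusted p = 2.1e-04), and BnaC09g20800D, which fell by 2.98 on the log2 scale (edgeR adjusted p = 0.0032). Without replicate 3 the log2 value was 7.50 for BnaCnng44320D and -2.39 for BnaC09g20800D, and without replicate 2 that of BnaCnng44320D was 8.78.

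Named genes of the ABA pathway were taken from the study's table of 86 ABA genes, grouped here by role. That table was chosen on these same samples for its changes, so the counts of the 6 role lists are not independent evidence of their direction. It keeps only those ABA genes that passed the study's cutoffs on fold change and significance. The study concludes that the larger part of the pathway's genes kept their level of expression. The counts below therefore describe the listed genes and not the ABA pathway as a whole. Of the 86 genes 61 were called higher, 10 lower and 15 not called, against 11.9% higher and 6.66% lower of all genes tested. Their median log2 fold change was 1.50, against -0.03 over all genes tested. For 68 of the 86 the 3 mock and 3 ABA values did not overlap, against 14.5% of all genes tested.

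Of the table's 18 PYR/PYL receptor genes 9 fell, 1 rose and 8 did not pass the test, against 6.66% lower and 11.9% higher of all genes tested. The median log2 fold change was -1.93, and for 13 genes the mock and ABA values did not overlap, against 14.5% of all genes tested. The receptor gene with the most counts, PYL4 BnaA03g17720D, had 72.4, 65.5 and 120.5 CPM in mock libraries 1, 2 and 3 and 32.9, 26.0 and 35.4 CPM after ABA, so that every ABA library was below every mock library. It fell by 1.41 on the log2 scale (SE 0.12, edgeR adjusted p = 3.0e-04). The largest fall of any called gene with at least 50 counts was that of PYL6 BnaA05g05420D, from 2.15, 0.488 and 12.6 CPM to 0.0489, 0.0586 and 0.137 CPM. In counts these were 214, 58 and 1770 against 5, 6 and 16, a 55.2-fold lower level (log2 fold change -5.79, SE 0.51, edgeR adjusted p = 0.0024). Without replicate 3, the library pair with the most PYL6 counts, the log2 value was -4.48, and without replicate 1 the edgeR adjusted p was 0.053.

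A pair of further PYL6 copies had lower values without passing the test. BnaC04g04830D had 1.76, 0.412 and 9.26 CPM against 0.235, 0.186 and 0.360 (log2 fold change -3.41, SE 0.79, edgeR adjusted p = 0.082), and BnaC03g22610D had 0.663, 0.253 and 2.02 CPM against 0.225, 0.0586 and 0.0428 (log2 fold change -3.00, SE 0.84, edgeR adjusted p = 0.084). In both genes the groups did not overlap, but the ratio differed several-fold between replicates. Without replicate 3 both were called lower, at log2 values of -2.19 (edgeR adjusted p = 8.2e-04) and -1.75 (0.0052), as was the first without replicate 2 (-4.03, 0.0092), and DESeq2 called both (adjusted p = 0.0075 and 6.7e-05). All 18 receptor genes moved in 1 direction in 3 of 3 replicates, as 54.8% of all tested genes did. PYL9 BnaA10g00540D was the receptor gene that rose, with 22.4, 12.2 and 51.4 CPM in the mock libraries and 47.0, 25.5 and 135 CPM after ABA. The groups overlapped because replicate 3 was high in both treatments, and within every replicate the level at least doubled (log2 fold change 1.18, SE 0.09, edgeR adjusted p = 1.4e-04). Summed over the 18 genes, reads went from 376, 244 and 699 CPM to 174, 118 and 256 CPM. Receptor genes outside the table are not in this sum. The number of receptor genes called lower was 17 with DESeq2's Wald test and without replicate 3, 4 without replicate 1, and 1 without the replicate block.

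Most PP2C genes of the table, for phosphatases that the receptors inhibit, rose. Of its 19 PP2C genes 16 were called higher and none lower in edgeR's test, against 11.9% and 6.66% of all genes tested. All 19 were higher and none lower at an unadjusted p under 0.05 and by DESeq2. Their median log2 fold change was 2.13. Mock and ABA values did not overlap in 19 of 19 genes, against 14.5% of all genes tested. The steepest rises were in AHG3, AIP1 and HAI1, PP2Cs that act in seeds and in drought-stressed tissue in Arabidopsis. AIP1 BnaC05g05180D went from 0.321, 0.513 and 0.121 CPM to 21.9, 31.3 and 24.8 CPM, an 86.3-fold rise (log2 fold change 6.43, SE 0.35, edgeR adjusted p = 0.0015). AHG3 BnaA01g37370D had 1.07, 2.34 and 0.973 CPM against 84.4, 92.4 and 96.9 (log2 fold change 6.04, SE 0.35, edgeR adjusted p = 0.0026). AHG3 BnaC05g41830D rose from 6.94, 13.2 and 7.64 CPM to 403, 396 and 461 CPM (log2 fold change 5.56, SE 0.26, edgeR adjusted p = 3.0e-04), and the third AHG3 gene, BnaA05g27660D, reached a similar level with a log2 fold change of 5.38. The AHG3 genes passed from at most 16.6 CPM in any mock library to at least 84.4 CPM in every ABA library, and the ABA libraries of each gene lay within a narrow range.

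ABI1 and ABI2, the PP2Cs first found through ABA-insensitive mutants, started higher and rose less. ABI1 BnaC01g18020D, the PP2C gene with the most counts, had 193, 275 and 181 CPM in mock libraries and 461, 499 and 561 CPM after ABA (log2 fold change 1.25, SE 0.15, edgeR adjusted p = 0.0012). All 4 ABI1 genes of the table were higher, with log2 fold changes of 1.03 to 1.30, and its 2 ABI2 genes rose by 1.95 and 2.13. The 3 uncalled members were both HAB1 genes, with log2 fold changes of 1.76 and 2.06 (edgeR adjusted p = 0.06 and 0.076), and HAI3 BnaA05g12650D, whose ABA values were 0.127, 0.215 and 0.746 CPM. Summed over the PP2C genes of the list, reads went from 559, 685 and 474 CPM to 2483, 2442 and 2847 CPM.

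**Figure D3:**
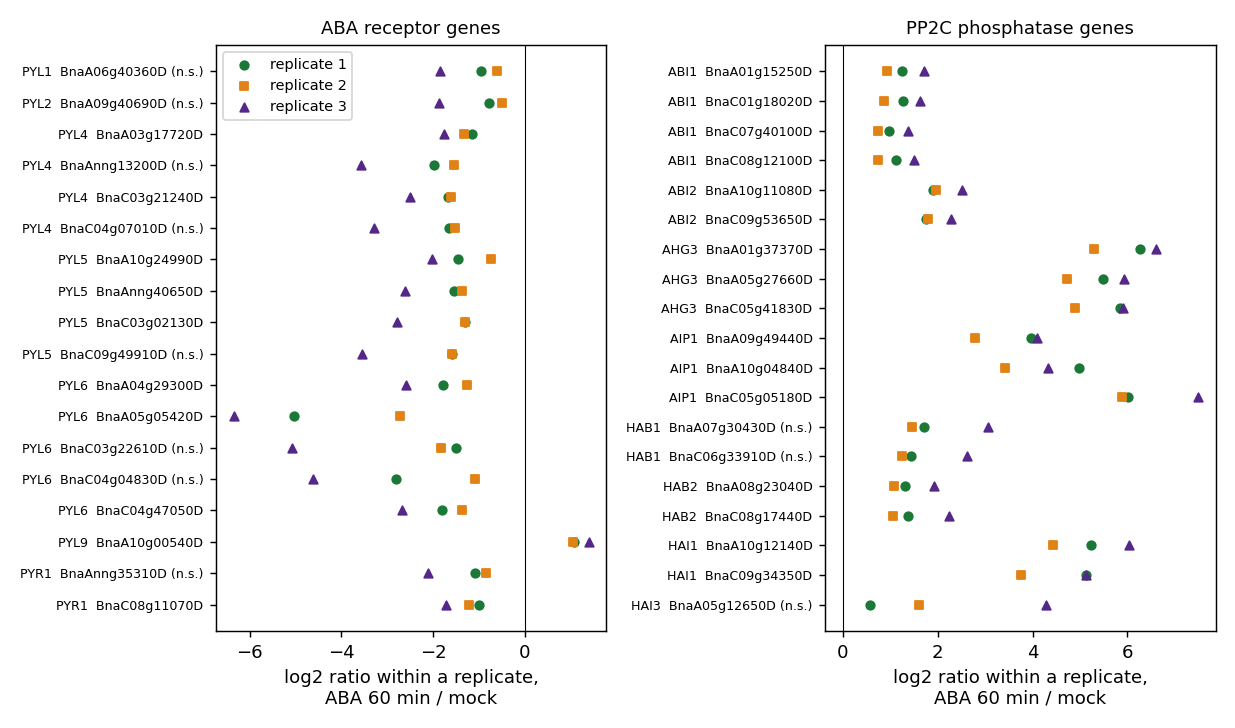
Each row is 1 receptor gene (left) or 1 PP2C gene (right), and the 3 symbols are the log2 ratios of ABA 60 min to mock within replicates 1, 2 and 3, computed from log2 CPM after a prior count of 2 was added. Genes marked n.s. did not pass the test. All receptor ratios except those of PYL9 lie below 0, all PP2C ratios lie above 0, and replicate 3 lies farthest from 0 in 18 of 18 receptor and 18 of 19 PP2C genes.

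The size of these changes differed by replicate. The median log2 ratio of the receptors was -1.52, -1.32 and -2.60 in replicates 1, 2 and 3, and that of the PP2Cs 1.76, 1.80 and 3.05. The largest of the 3 ratios was in replicate 3 for all 18 receptors and for 18 of 19 PP2Cs, against 44.2% of all genes tested. Replicate 3 was also the one with the highest guard cell markers and the lowest CAB1 in mock libraries, and the part of cell composition in this was not tested.

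Most protein kinases of the table rose. Of 9 genes 8 were called higher and 1 lower, against 11.9% and 6.66% of all genes tested. Their median log2 fold change was 1.20, and mock and ABA values did not overlap in 5, against 14.5% of all genes tested. The 2 genes that the table holds for OST1, the SnRK2 kinase of stomatal closure, were weakly expressed. OST1 BnaA01g03110D had 2.18, 2.36 and 2.56 CPM in mock libraries and 9.54, 5.997 and 14.7 CPM after ABA (log2 fold change 2.01, SE 0.24, edgeR adjusted p = 0.0067), and OST1 BnaC01g04370D had 2.98, 3.69 and 3.82 CPM against 8.70, 7.16 and 14.0 (log2 fold change 1.46, SE 0.17, edgeR adjusted p = 0.0026). Both were higher in every ABA library than in any mock library, and without replicate 1 the first was not called (edgeR adjusted p = 0.061). CIPK14 BnaAnng00100D, a kinase of the calcium-sensing CBL-CIPK network, rose from 2.72, 2.59 and 0.902 CPM to 13.5, 8.37 and 5.90 CPM (log2 fold change 2.21, SE 0.19, edgeR adjusted p = 7.7e-04). CIPK23 BnaA09g26270D, of the same network and in Arabidopsis an activator of potassium and nitrate transport, was the member that fell, from 0.874, 1.14 and 0.448 CPM to 0.421, 0.713 and 0.146 CPM. Its groups overlapped, and the log2 fold change of -1.05 (edgeR adjusted p = 0.021) was not called without replicate 1 (edgeR adjusted p = 0.14).

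MPK12, a MAP kinase concentrated in guard cells, had the most reads of the kinases. MPK12 BnaA05g05340D had 54.5, 27.5 and 153 CPM in the mock libraries and 138, 67.7 and 299 CPM after ABA (log2 fold change 1.20, SE 0.10, edgeR adjusted p = 2.0e-04). The spread between replicates exceeded the rise, so that the groups overlapped while each replicate roughly doubled. The other two MPK12 genes rose by 1.00 and 1.18, and 2 genes of the receptor-like kinase RPK1 by 1.20 and 1.35 on the log2 scale.

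Every transcription factor and co-regulator of the table rose. All 22 genes were called higher in edgeR's test, against 11.9% of all genes tested, with a median log2 fold change of 2.55. In 21 the groups did not overlap, against 14.5% of all genes tested. ABF3, a bZIP factor that binds ABA-responsive promoter elements, led in read number. ABF3 BnaC07g44670D had 23.1, 26.8 and 27.5 CPM in the mock libraries and 384, 248 and 691 CPM after ABA (log2 fold change 3.97, SE 0.35, edgeR adjusted p = 0.0059), and the other two ABF3 genes rose by 3.61 and 3.81. The 5 ABF4 genes of this list rose by 1.10 to 2.21 and the 2 ABF2 genes by 1.57 and 1.92. AFP1, which binds ABI5 and restrains it in Arabidopsis, had the largest rises from the lowest levels. AFP1 BnaC06g25430D went from 0.0804, 0.0758 and 0.0924 CPM to 2.82, 1.76 and 5.52 CPM (log2 fold change 5.30, SE 0.26, edgeR adjusted p = 2.4e-05), and AFP1 BnaA07g24330D from 0.111, 0.160 and 0.107 CPM to 2.79, 1.85 and 7.14 CPM (log2 fold change 4.85, SE 0.47, edgeR adjusted p = 0.0035).

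MYB44, in Arabidopsis a MYB factor that lowers PP2C transcripts, rose in all 3 copies that the table holds. MYB44 BnaA07g11930D had 4.08, 9.05 and 2.98 CPM against 114, 100.4 and 119 CPM (log2 fold change 4.52, SE 0.53, edgeR adjusted p = 0.03), the other copies rose by 2.89 and 3.87, and 3 genes of RD26, a NAC factor of drought response, by 3.39 to 4.35. Single genes of ABI5, MYC2, HB6 and WRKY2 rose by 1.22 to 1.34. The number of the 22 called was 14 without replicate 1 and 14 with no filter on low counts, and the edgeR adjusted p of BnaA07g11930D was 0.15 without replicate 1 and 0.22 without replicate 3. That of AFP1 BnaA07g24330D was 0.056 without replicate 1, and its log2 value 5.51 without replicate 2 and 4.02 without replicate 3. Summed over the list, reads went from 196, 220 and 205 CPM to 1728, 1442 and 2237 CPM.

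**Figure D4:**
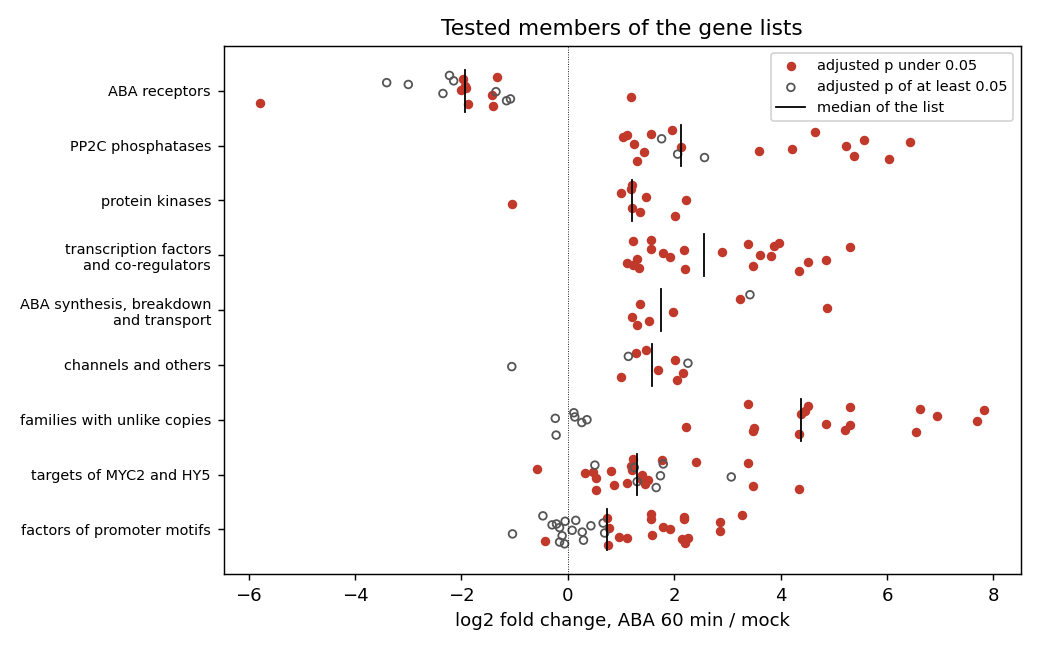
Each point is the log2 fold change, ABA 60 min over mock, of 1 tested gene, grouped by list, with filled points for genes called and open points for the rest, and a bar at the median of each list. The receptor median lies at -1.93 and the medians of the other 8 lists drawn between 0.73 and 4.38.

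Most genes of the table for making, breaking down and moving ABA rose. Of 8 genes 7 were called higher and none lower in edgeR's test, against 11.9% and 6.66% of all genes tested. All 8 were higher and none lower at an unadjusted p under 0.05 and by DESeq2. The median log2 fold change was 1.75. ABA1, the zeaxanthin epoxidase at the start of ABA synthesis, differed most between copies. ABA1 BnaA09g07610D went from 0.392, 0.396 and 0.306 CPM to 8.32, 6.12 and 20.8 CPM (log2 fold change 4.88, SE 0.51, edgeR adjusted p = 0.015). ABA1 BnaC09g07550D had 0.995, 1.08 and 0.973 CPM against 6.79, 6.63 and 26.1 CPM and was not called (log2 fold change 3.42, SE 0.62, edgeR adjusted p = 0.067), and BnaA07g12170D, the copy with the most ABA1 reads in mock libraries, rose by 1.21. In the first 2 copies replicate 3 was highest after ABA, and its mock value was not. CYP707A1 BnaA03g43960D, an ABA-degrading hydroxylase, rose by 1.30 (edgeR adjusted p = 0.0095). It was not called without replicate 1 (edgeR adjusted p = 0.08). The CYP707A1 genes BnaAnng27240D and BnaC01g11650D, which the study lists as transient, are not among these 8 and were not called. Their log2 fold changes were 0.069 and 0.024 (edgeR adjusted p = 0.64 and 0.88), so the rise did not extend to every CYP707A1 copy.

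ABCG25, an ABA exporter of Arabidopsis, rose in its copy BnaC06g32970D from 3.33, 2.67 and 0.838 CPM to 31.6, 15.4 and 13.8 CPM (log2 fold change 3.23, SE 0.34, edgeR adjusted p = 0.013). ABCG31, a related transporter, had the most reads of this list. ABCG31 BnaC04g40750D had 53.2, 104 and 41.6 CPM in the mock libraries and 187, 204 and 99.7 CPM after ABA, with overlapping groups (log2 fold change 1.35, SE 0.16, edgeR adjusted p = 0.0022). Without replicate 1, 4 of the 8 genes were called, and the edgeR adjusted p was 0.1 for ABA1 BnaA09g07610D and 0.082 for ABCG25 BnaC06g32970D. Without replicate 3 the log2 value of ABA1 BnaA09g07610D was 4.16. Without replicate 3 ABA1 BnaC09g07550D was called at 2.68 (edgeR adjusted p = 2.7e-11).

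Among channels and other proteins, 7 of 10 genes were called higher and none lower in edgeR's test, against 11.9% and 6.66% of all genes tested. At an unadjusted p under 0.05 and by DESeq2, 9 were higher and none lower. The median log2 fold change was 1.58. ALMT12, the anion channel that releases malate and other anions from closing guard cells, rose in both copies that the table holds. ALMT12 BnaC07g34970D had 72.6, 95.5 and 300.0 CPM in the mock libraries and 459, 281 and 1074 CPM after ABA (log2 fold change 2.02, SE 0.23, edgeR adjusted p = 0.0037), and BnaA03g43490D had 43.3, 37.0 and 162 CPM against 269, 144 and 599 CPM (log2 fold change 2.16, SE 0.16, edgeR adjusted p = 2.1e-04). Replicate 3 was highest in both treatments, the groups overlapped, and each replicate rose about 3-fold or more. Without replicate 3 the edgeR adjusted p of BnaC07g34970D was 0.18 at a log2 value of 2.09.

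ABAR, the large subunit of the plastid magnesium chelatase, had 39.7, 33.5 and 20.4 CPM against 154, 97.1 and 129.9 CPM in its copy BnaA03g04440D (log2 fold change 2.05, SE 0.24, edgeR adjusted p = 0.0092). Its copy BnaC03g05980D had 24.7, 27.9 and 10.7 CPM against 118, 76.5 and 89.8 CPM (log2 fold change 2.26, SE 0.40, edgeR adjusted p = 0.051), just outside the threshold but called without replicate 2 (0.0021) or replicate 3 (0.027), and the first was outside it without replicate 1 (edgeR adjusted p = 0.057). The 3 genes of the plastid fibrillin FIB rose by 1.29 to 1.69, and CAX3, a vacuolar calcium exchanger, by 1.00. RBOHD BnaAnng07990D, an NADPH oxidase that makes reactive oxygen in ABA signaling, had 20.4, 7.83 and 36.1 CPM in the mock libraries and 14.1, 4.86 and 9.49 CPM after ABA, the one member of the list with a negative fold change (-1.05, SE 0.37, edgeR adjusted p = 0.17). Without replicate 3 the log2 value of RBOHD was -0.62 and it was called lower (edgeR adjusted p = 6.1e-05). The annexin ANN1 had a log2 fold change of 1.14 (edgeR adjusted p = 0.1).

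**Figure D5:**
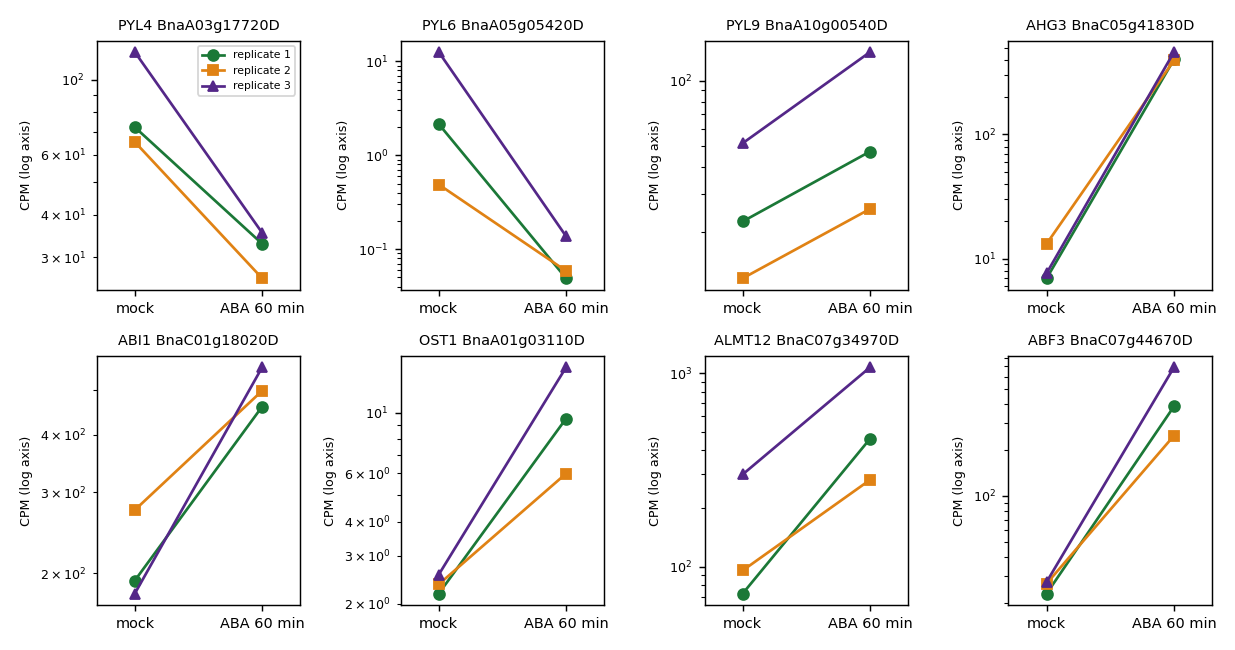
CPM on a log axis in the mock and the ABA 60 min library of each replicate, joined by a line, for 8 genes of the ABA pathway. PYL4 and PYL6 fall in all 3 replicates, PYL9, AHG3, ABI1, OST1, ALMT12 and ABF3 rise, and for PYL9 and ALMT12 replicate 3 lies above the others in both treatments.

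Copies of 1 gene did not always move alike. The study lists 8 families for unlike changes of their members, again chosen on these samples, with 23 of 31 genes tested and at most 21 counts in a library for the other 8. Of the 23 genes 17 were called higher, against 11.9% of all genes tested, and 6 were not called. GALT2, which adds galactose to arabinogalactan proteins, rose in BnaC07g36550D from 0.221, 1.06 and 0.277 CPM to 9.62, 15.2 and 7.72 CPM (log2 fold change 4.52, SE 0.31, edgeR adjusted p = 0.0015). The other copies, BnaA01g10960D and BnaC01g12450D, had more mock reads, 5.26, 5.16 and 5.39 CPM and 3.54, 3.38 and 3.51 CPM, and log2 fold changes of -0.22 and -0.24 that did not pass the test. TSPO, a membrane protein induced by ABA in Arabidopsis, rose in 3 of 4 copies, by 4.46 in BnaC04g51120D (SE 0.13, edgeR adjusted p = 4.0e-06), while BnaC04g00110D had 5.41, 6.89 and 4.81 CPM against 5.48, 6.68 and 6.19 CPM (log2 fold change 0.11, SE 0.11, edgeR adjusted p = 0.52). In GALT2 and TSPO, as in DJ1C below, the copy with the most mock reads was uncalled. The copies that rose started at or near 1 CPM or below.

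The families of AFP1, AT3G02480, AT3G15670 and AT3G17520 differed in this respect, since every tested copy was called higher. RD26 differed too. Its copy with the most reads, BnaA03g48570D, rose from 18.2, 29.7 and 7.35 CPM to 205, 238 and 112 CPM (log2 fold change 3.47, SE 0.19, edgeR adjusted p = 2.3e-04), and BnaC01g19550D, with 1.44, 1.23 and 0.639 CPM against 1.78, 1.47 and 0.540 CPM, was the uncalled copy (log2 fold change 0.13, SE 0.18, edgeR adjusted p = 0.66). DJ1C, a plastid protein of the DJ-1 family, rose in BnaA03g50810D from 0.0502, 0.0253 and 0.0782 CPM to 2.03, 0.801 and 3.02 CPM, on 5, 3 and 11 counts against 207, 82 and 352 (log2 fold change 5.21, SE 0.25, edgeR adjusted p = 2.4e-05). Reads that fitted more than 1 place were discarded by the counting, so the levels of near-identical copies are uncertain.

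One list holds genes that the study gives as transient, on the evidence of these samples. The study listed genes that changed earlier and did not pass its threshold at 60 min. Few or no calls at 60 min therefore follow from that choice. Of the 11 genes none was called at 60 min in edgeR's test, against 18.5% of all genes tested, or by DESeq2. At an unadjusted p under 0.05, 1 was higher and 2 were lower. The median log2 fold change was -0.13, and the range -0.52 to 0.26. STZ BnaC05g21480D, a zinc finger repressor of stress responses, had the most reads, with 321, 109 and 282 CPM in the mock libraries and 222, 102 and 234 CPM after ABA (log2 fold change -0.30, SE 0.11, edgeR adjusted p = 0.087). The reticulon RTNLB3 BnaA09g11950D had 3.68, 3.80 and 4.12 CPM against 3.17, 3.29 and 1.86 CPM (log2 fold change -0.52, SE 0.20, edgeR adjusted p = 0.12), and the metallothionein MT3 BnaC03g39060D had 4.25, 0.976 and 1.33 CPM against 3.91, 0.703 and 1.10 CPM (log2 fold change -0.27, SE 0.14, edgeR adjusted p = 0.22). In the RTNLB3 gene every ABA value was below every mock value, and in the STZ and MT3 genes the groups overlapped. With total count scaling 7 of the 11 were called lower.

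MYC2, a bHLH factor of jasmonate and ABA signaling, and HY5, a bZIP factor of light signaling, were followed with 27 of their targets that the study selected because they changed in these samples. MYC2 BnaC08g07580D had 4.36, 3.90 and 2.99 CPM against 8.94, 6.64 and 11.04 CPM (log2 fold change 1.23, SE 0.23, edgeR adjusted p = 0.025), and MYC2 BnaA05g18020D had 6.66, 8.72 and 5.56 CPM against 8.93, 13.0 and 6.55 CPM (log2 fold change 0.42, SE 0.09, edgeR adjusted p = 0.018). HY5 BnaA10g21200D had 0.673, 0.522 and 1.03 CPM against 1.38, 1.07 and 1.17 CPM and was not called (log2 fold change 0.73, SE 0.22, edgeR adjusted p = 0.055). Both MYC2 calls were lost without replicate 1 (edgeR adjusted p = 0.11 and 0.15), and that of BnaA05g18020D also without replicate 2 and with total count scaling. HY5 was called higher without replicate 3 (log2 fold change 1.02, edgeR adjusted p = 0.0031), with no filter on low counts (0.022) and with all 9 samples (0.023).

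Of the 27 targets 19 were called higher and 1 lower, against 11.9% and 6.66% of all genes tested. Their median log2 fold change was 1.30. The study lists these interactions as activation, repression or unknown, most of those of HY5 as unknown, and CAB1 as repressed by MYC2. RD26 BnaA01g16400D led with 2.47, 4.59 and 1.89 CPM against 52.7, 62.9 and 56.7 CPM (log2 fold change 4.35, SE 0.26, edgeR adjusted p = 0.0014), and RD26 BnaC07g40860D had 15.8, 20.1 and 7.35 CPM against 151, 156 and 115 CPM (log2 fold change 3.39, SE 0.22, edgeR adjusted p = 0.001). All 4 listed genes of the aquaporin AT2G37180, a water channel of the plasma membrane, rose, by 0.82 to 1.45, from levels of at most 2.56 CPM in the mock libraries. Of 5 ERD14 genes 3 rose and 2 were not called. Both RD22 genes were uncalled, at log2 fold changes of 1.30 and 1.79. RD22 BnaA06g39340D went from 3.12 to 4.97 CPM in replicate 1, from 2.95 to 3.51 in replicate 2 and from 4.68 to 33.5 in replicate 3, and without replicate 3 it was called at a log2 value of 0.45 (edgeR adjusted p = 0.029). CAB1 BnaC03g59520D had 41.7, 42.0 and 19.4 CPM against 48.2, 55.4 and 33.8 CPM (log2 fold change 0.47, SE 0.11, edgeR adjusted p = 0.026), and was not called with total count scaling (edgeR adjusted p = 0.19) or without replicate 1 (0.053) or 2 (0.08). AT3G16320 BnaC05g37040D, a subunit of the anaphase-promoting complex, was the target that fell, from 2.49, 3.19 and 1.39 CPM to 2.09, 2.15 and 0.703 CPM with overlapping groups (log2 fold change -0.58, SE 0.16, edgeR adjusted p = 0.04). It was not called by DESeq2 (adjusted p = 0.057) or without replicate 1, 2 or 3 (edgeR adjusted p = 0.089, 0.13 and 0.058).

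A final list holds transcription factors whose binding motifs the study found over-represented in promoters of genes that rose in these samples, so it is not independent of them. Of 43 genes 35 were tested, the other 8 having at most 14 counts in a library. Of the 35, 18 were called higher and 1 lower, against 11.9% and 6.66% of all genes tested. Their median log2 fold change was 0.73. Of the 18, 7 are ABF2 and ABF4 genes that also stand in the list of transcription factors above, chosen for its changes. The rises lay in 4 groups of factors. These were the ABF1 and ABF2 genes, with 4 of 4 called higher, ABF4 with 5 of 6, the G-box binding factors GBF1, GBF2 and GBF3, with 6 of 8, and the heat stress factor HSFC1, with 3 of 4. No gene of ARF1, CBF2, ERF1, MYB2, TGA1 or VOZ1 was called.

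The 3 largest fold changes of the list were those of G-box factor genes, whose 8 members ranged from 0.66 to 3.28. BnaCnng01910D had 4.17, 4.65 and 5.56 CPM against 41.5, 27.1 and 86.1 CPM (log2 fold change 3.28, SE 0.35, edgeR adjusted p = 0.015). BnaA09g00170D had 7.38, 7.62 and 8.04 CPM against 53.0, 37.1 and 88.4 CPM (log2 fold change 2.87, SE 0.26, edgeR adjusted p = 0.006). BnaC04g01070D, with the most reads of the list, had 17.6, 18.9 and 17.4 CPM against 111, 90.9 and 223 CPM (log2 fold change 2.86, SE 0.35, edgeR adjusted p = 0.019). In all 3 the ABA libraries lay above the mock libraries and replicate 3 rose most, and without replicate 1 the edgeR adjusted p was 0.092 for BnaCnng01910D and 0.079 for BnaC04g01070D. HSFC1 BnaA07g05580D rose from 18.4, 19.8 and 25.9 CPM to 65.7, 50.6 and 77.6 CPM (log2 fold change 1.59, SE 0.10, edgeR adjusted p = 5.8e-05). RAV2 BnaA02g14040D, in Arabidopsis a repressor of flowering, was the factor that fell, from 10.5, 8.08 and 13.8 CPM to 9.20, 6.30 and 8.44 CPM with overlapping groups (log2 fold change -0.42, SE 0.11, edgeR adjusted p = 0.029), and it was not called without replicate 1 (0.075), 2 (0.077) or 3 (0.056). The 3 ERF1 genes, ethylene response factors, had log2 fold changes of -1.04 to -0.06, none past the threshold.

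In 4620 of the 9484 called genes, 48.7%, the 3 ABA values lay all above or all below the 3 mock values, against 14.5% of all genes tested, and since the call rests on the same libraries this is a description only. In the other 4864 called genes the ranges of the 2 groups overlapped. The largest of the 3 log2 ratios was in replicate 3 for 54.7% of called genes, in replicate 1 for 30.8% and in replicate 2 for 14.5%.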

How the data were processed

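RNA from guard cell protoplasts was sequenced as single-end reads. The authors used TopHat2 to place the reads on the genome of the Darmor line and HTSeq to count them by gene, without those that mapped to more than 1 place, and deposited the raw counts. The version of the annotation and the strand setting of the counting are not given in the sources used here, so overlapping genes are uncertain. Depth is the total count of each library, and the 3 replicates are separate pools of protoplast preparations.

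Counts of the 6 libraries were filtered with filterByExpr, scaled by TMM and tested with edgeR 4.0.16 (quasi-likelihood, robust) under R 4.3.3, with treatment and the replicate number as terms and Benjamini-Hochberg adjustment over 51128 genes. Standard errors (SE) were derived from the F statistic, as the size of the log2 fold change over the square root of F. The block follows the study's methods. Deviations from the group means correlated at 0.72 to 0.77 between mock and ABA libraries of the same number and at -0.57 to -0.16 between others, so the numbers pair the libraries. No 2 libraries of a group were copies of each other, with a chi-square per degree of freedom of at least 137. The scripts were tested on simulated data.

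The lists come from the study's tables, and the comparison and the lists were chosen with earlier results of these data known. Named in full are, for each list, the 3 members with the largest fold change at a mean of at least 50 counts, the member with the most counts and members that moved against the majority. Over all genes the 10 largest rises, falls and gains in CPM were considered, with at most 2 unnamed genes per direction. Other members named, such as single RD22, CAB1, TSPO and GALT2 genes, were chosen after their values were seen. The RefSeq table held 3347 of the gene IDs without names or products, so lists by product were not made, and no sequence is shown. Alternatives were DESeq2 1.42.0 (Wald test), RLE and total count scaling, other filters on low counts, no replicate block, all 9 samples in 1 model, and leaving out each replicate number.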

Additional observations from a re-analysis of the deposited data

How the results depend on the processing

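The count of called genes, 9484, depended on the replicate block and on the scaling. Without the replicate block, 444 genes were called, 443 of them over 2-fold and 97.7% of them higher, and 425 of the 444 were also called with it. The lists then held 2 kinase genes called higher and 0 lower, 13 transcription factor genes higher, 1 channel and enzyme gene higher, 0 receptor genes higher and 1 lower, 2 metabolism and transport genes higher, 5 target genes higher and 0 lower, and 9 binding-site factor genes higher and 0 lower.

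Under total count scaling 23026 genes were called, of which 15.3% were higher, with 5 binding-site factor genes, 7 transient genes and 2 genes of the unlike families called lower. The share of called genes that were higher, 64.1% with TMM, was 70.9% by DESeq2, 61.7% without a filter on low counts as well as with a mean of at least 50 counts, and 58.6% with all 9 samples in the model. Receptor genes called lower numbered 17 by DESeq2 and 17 with all 9 samples, against 9. DESeq2 called 0 target genes lower, transcription factor genes called higher numbered 14 without the filter, and with all 9 samples 2 binding-site factor genes were called lower and 1 transient gene higher. The cause of these shifts was not tested.

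With 1 replicate number left out, 2919 to 9701 genes were called, 1480 to 2629 of them over 2-fold, and 60.1% to 77.6% of the called genes were higher. The lowest count came without replicate 1. The lists then held 4 to 17 receptor genes called lower, 14 to 21 transcription factor genes higher, 0 to 1 kinase genes lower, 0 to 1 channel and enzyme genes lower, 4 to 7 metabolism and transport genes higher, and 10 to 22 target genes higher. No target or binding-site factor gene was called lower in any of these fits (0 against 1 each). These fits rest on 4 libraries.

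Of the 169 list genes tested, 113 were called, and none of these changed direction under any of the alternatives listed. Calls lost numbered 66 without the block, 27 without the filter, 6 under total count scaling, 1 by DESeq2 (of 165 list genes with an adjusted p), and 43, 11 and 14 without replicates 1, 2 and 3. No call was lost with RLE scaling, with all 9 samples or, among the 161 list genes kept, with a mean of at least 50 counts. Genes named in the report whose call was lost without the filter included ABF3 BnaC07g44670D (edgeR adjusted p = 0.054), MYB44 BnaA07g11930D (0.081) and the G-box factor BnaC04g01070D (0.094). Among uncalled genes named in the report, BnaC01g19550D turned to -0.16 on the log2 scale under total count scaling, and BnaC04g00110D to -0.18 under that scaling, and the latter ranged from -0.027 without replicate 3 to 0.19 without replicate 2.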
